A study of Mus musculus with 9 samples.

Results

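Cholesterol synthesis and the cellular response to sterols were followed through 8 genes, Hmgcs1, Sqle, Insig1, Idi1, Fdps, Fdft1, Srebf2 and Abca1. They were found by symbol among the 18188 genes listed in each library, and all 8 were present. The libraries hold poly(A) RNA of CD8+ T cells from mouse spleens, the cytotoxic lymphocytes that attack infected or transformed cells. The study compared 4 libraries labelled Rig1 KO, a knockout of the gene for the cytosolic RNA sensor RIG-I, with 5 libraries labelled WT, and its title calls RIG-I a checkpoint on their activity against tumours. The kind of knockout, the strain, age and sex of the mice, and the way the cells were purified are not named in the labels, which give no treatment for either group. The titles number the libraries and name no animals. The p-values therefore reflect the spread between these libraries alone, which may be technical.

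Cholesterol is made from acetyl-CoA by the mevalonate pathway, whose product farnesyl diphosphate either enters the sterol branch or is used for isoprenoids such as the lipid anchors of small GTPases. The transcription factor SREBP2, encoded by Srebf2, is held in the endoplasmic reticulum by INSIG proteins when sterols are plentiful and is released when they are scarce. It then raises transcription of nearly every enzyme of the pathway and of Insig1 itself. Surplus sterol is handled the other way, through LXR nuclear receptors that are activated by oxysterols and raise the exporter Abca1. Activated CD8+ T cells are known to raise sterol synthesis as they grow and divide.

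Transcript levels were deposited as TPM, a level adjusted for gene length and for the size of each library. The values were compared with limma on log2(TPM + 1), so a log2 fold change is Rig1 KO minus WT on that scale and understates the change of low genes. Insig1, which encodes a brake on SREBP2, was 2.71-fold lower in Rig1 KO libraries than in WT libraries. The squalene synthase gene Fdft1 was also lower, by less, and the exporter gene Abca1 was 1.37-fold higher. Hmgcs1, Sqle, Idi1, Fdps and Srebf2 did not pass the threshold of 0.05 on the adjusted p-value.

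All 8 genes reached the minimum TPM of 1 in at least 4 libraries and so were among the 10540 genes tested. Of these 8 genes 1 was higher and 2 were lower in Rig1 KO, and in these 3 genes the values of the groups did not overlap. The background was high, since 33.5% of all tested genes were higher, 12.2% were lower, 45.7% changed in either direction, and 38.1% had groups that did not overlap. The 3 calls among 8 genes are therefore no more than the share found over all genes, and what follows concerns the size and the pattern of the single genes. The median log2 fold change was -0.12 over the 8 genes and 0.13 over all tested genes. When the libraries were rescaled by median ratio, which centres the median of all genes near 0, 22.6% of all genes were higher and 22.6% lower. The 8 genes then had a median log2 fold change of -0.25, with 1 higher and 4 lower.

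The 9 libraries held 15496262 to 17893558 recovered reads, a similar depth in both groups. Ddx58, the symbol under which the RIG-I gene is listed, was at 30.6 to 35.2 TPM in Rig1 KO libraries and 63.2 to 67.4 TPM in WT libraries (log2 fold change -0.95, limma adjusted p = 4.91e-07), so its transcripts were lower but present. The T cell marker list had 9 of 9 genes higher in Rig1 KO, with a summed level of 7434 to 8171 TPM in Rig1 KO and 5469 to 6245 TPM in WT. Of 10 tested B cell markers 9 were lower in Rig1 KO, with sums of 208 to 399 TPM in Rig1 KO and 417 to 2802 TPM in WT. Of 15 measured macrophage and monocyte markers 4 were higher, with sums of 3580 to 3829 TPM in Rig1 KO and 1749 to 2927 TPM in WT. Basophil and mast cell markers were higher in 6 of 6 genes (221 to 422 TPM in Rig1 KO and 15.04 to 58.4 TPM in WT) and NK cell markers in 5 of 7 (505 to 546 TPM in Rig1 KO and 180 to 260 TPM in WT). Platelet markers were lower in 4 of 5 genes (41.0 to 49.8 TPM in Rig1 KO and 188 to 250 TPM in WT) and CD4 T cell markers in 2 of 3 (11.6 to 18.8 TPM in Rig1 KO and 61.9 to 99.5 TPM in WT). The part of these differences in the results below was not tested, apart from the covariates for B cell and for macrophage and monocyte markers. No measured marker of these lists was at 0 in every library. In such bulk libraries fewer cells of a type and less RNA per cell cannot be told apart.

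The stretch of 250 bases upstream of the annotated start was read for the 5 of the 8 genes that RefSeq's table for GRCm38.p6 held, namely Insig1, Srebf2, Hmgcs1, Idi1 and Abca1. Those of Insig1 (chr5:28071162-28071411, plus strand) and Hmgcs1 (chr13:119690101-119690350, plus strand) are shown because both are textbook SREBP2 targets and only Insig1 was called lower. That of Abca1 (chr4:53159896-53160145, minus strand) is shown as the gene of the opposite, LXR-driven arm. They run 5′ to 3′ along the gene. Capitals mark matches to a sterol element searched as CACNCCAC and to the NF-Y box CCAAT, either of which may lie on the opposite strand, where CCAAT reads ATTGG.
Insig1: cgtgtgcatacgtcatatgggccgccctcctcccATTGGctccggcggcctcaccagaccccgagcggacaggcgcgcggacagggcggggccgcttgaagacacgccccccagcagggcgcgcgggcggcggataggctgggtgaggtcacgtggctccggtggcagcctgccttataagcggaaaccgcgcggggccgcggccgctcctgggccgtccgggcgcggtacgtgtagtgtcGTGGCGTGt
Hmgcs1: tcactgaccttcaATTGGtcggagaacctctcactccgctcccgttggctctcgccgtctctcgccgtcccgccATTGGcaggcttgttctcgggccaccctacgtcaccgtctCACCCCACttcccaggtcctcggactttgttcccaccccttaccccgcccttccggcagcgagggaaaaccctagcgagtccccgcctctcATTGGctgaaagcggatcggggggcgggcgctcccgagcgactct
Abca1: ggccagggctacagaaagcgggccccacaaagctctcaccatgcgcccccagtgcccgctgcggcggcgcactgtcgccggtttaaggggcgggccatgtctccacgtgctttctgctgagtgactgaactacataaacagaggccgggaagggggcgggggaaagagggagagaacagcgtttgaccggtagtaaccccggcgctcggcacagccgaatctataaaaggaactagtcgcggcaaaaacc

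Both the Insig1 and the Hmgcs1 stretch held 1 sterol element by this search, which 5.29% of 32851 promoters of this length hold. In Hmgcs1 it read CACCCCAC, at positions -136 to -129 from the start. In Insig1 it lay on the opposite strand, reading GTGGCGTG along the gene, at positions -9 to -2. Hmgcs1 had 3 NF-Y boxes and Insig1 had 1, a motif present in 33.8% of promoters. The stretches of Idi1 and Srebf2 held no match to the sterol element, with 2 NF-Y boxes in Idi1 and 1 in Srebf2. The Abca1 stretch matched neither motif and so carries no capitals. Each of the 5 held at least 1 Sp1 box (GGGCGG on either strand), found in 32.7% of promoters, and Insig1 and Abca1 each had 1 E-box (CACGTG), found in 6.02%. A match is a string of letters and not a site of binding, and the motifs did not overlap each other in these stretches.

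Insig1 encodes an endoplasmic reticulum protein that retains the SREBP2 escort SCAP when sterols are high. Its level was 39.8, 43.1, 47.8 and 49.5 TPM in Rig1 KO libraries 1 to 4, against 136, 109, 122, 116 and 126 TPM in WT libraries 1 to 5. The highest Rig1 KO library was below the lowest WT library by a wide margin, and the libraries of each group lay close together. Insig1 averaged 45.03 ± 4.396 TPM in Rig1 KO (SD, n = 4) and 122 ± 10.2 TPM in WT (SD, n = 5), so the Rig1 KO mean was 36.9% of that in WT. The log2 fold change was -1.42 (SE 0.080, 95% interval -1.60 to -1.24, limma adjusted p = 4.11e-07). It ranked 168th from the lowest among the 10540 tested genes. The exact two-sided permutation test of the mean TPM gave p = 0.0159, the smallest that 4 against 5 libraries can give. Between 448 and 1502 recovered reads stood behind each value, and the threshold was passed in 25 of 25 alternative settings, with log2 fold changes of -1.56 to -1.31.

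**Figure D1:**
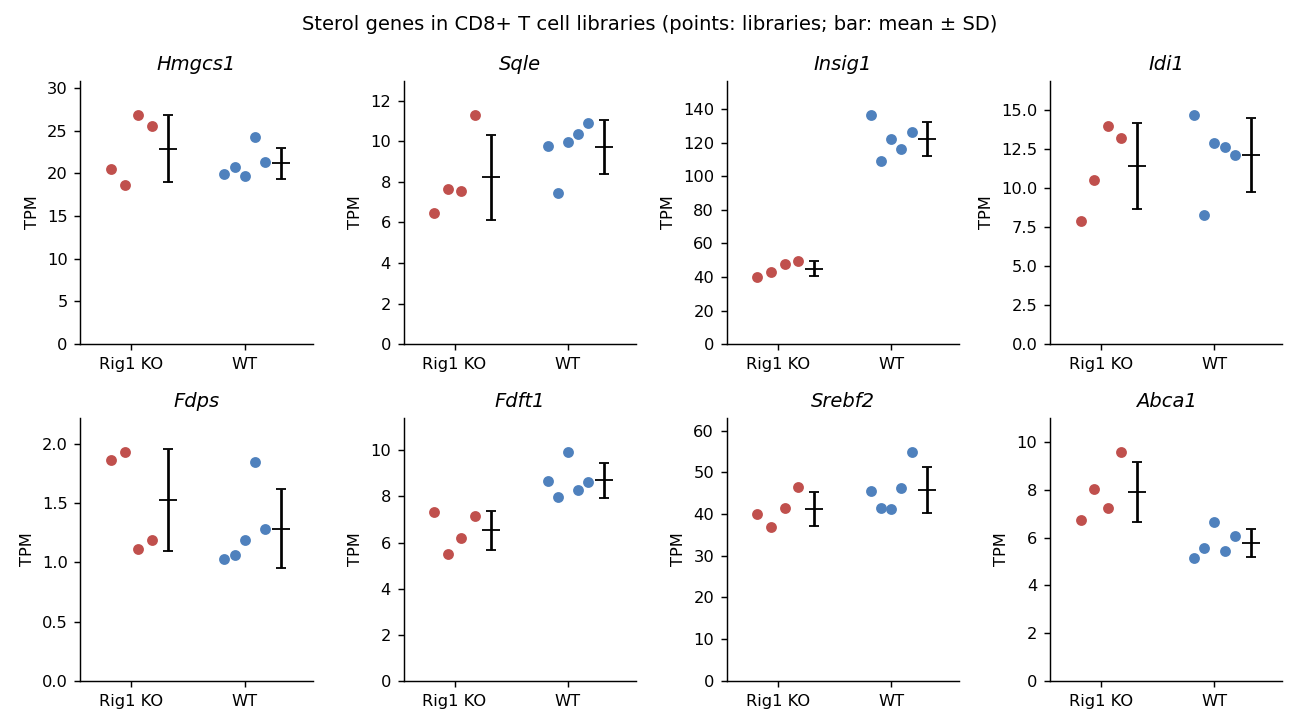
TPM of each of the 8 genes in every library, with 1 panel per gene and its own axis starting at 0; points are libraries, Rig1 KO left and WT right, and bars give the mean and SD (n = 4 and n = 5). The Insig1 panel shows the widest gap, with Rig1 KO at 39.8 to 49.5 TPM and WT at 109 to 136 TPM, while Hmgcs1, Sqle, Idi1, Fdps and Srebf2 overlap.

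Srebf2, the gene of the transcription factor that INSIG proteins restrain, had 39.9, 36.9, 41.5 and 46.4 TPM in Rig1 KO libraries, against 45.4, 41.4, 41.1, 46.2 and 54.8 TPM in WT libraries. The groups overlapped, with WT 5 the highest of the 9. The means were 41.2 ± 3.98 TPM in Rig1 KO (n = 4) and 45.8 ± 5.56 TPM in WT (n = 5), and the log2 fold change of -0.15 did not pass (95% interval -0.35 to 0.06, limma adjusted p = 0.222). It passed as lower when scaled by median ratio (-0.28, adjusted p = 0.0131) or by quantiles (-0.26, adjusted p = 0.0171), and with limma voom on recovered reads (-0.22, adjusted p = 0.0275). With a covariate for the B cell markers the estimate was 0.087 (adjusted p = 0.658). Whether the B cell difference has a part in the Srebf2 values was not tested beyond that fit.

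Hmgcs1 encodes the cytosolic HMG-CoA synthase, an early step of the mevalonate pathway. It had 20.5, 18.6, 26.8 and 25.6 TPM in Rig1 KO libraries, against 19.9, 20.7, 19.6, 24.2 and 21.3 TPM in WT libraries. Rig1 KO 3 and 4 were the 2 highest of the 9 libraries and Rig1 KO 2 the lowest. Hmgcs1 averaged 22.9 ± 3.92 TPM in Rig1 KO (n = 4) and 21.1 ± 1.85 TPM in WT (n = 5), with a log2 fold change of 0.10 that did not pass (95% interval -0.14 to 0.34, limma adjusted p = 0.493). The direction was not stable, at -0.036 under median ratio scaling, -0.11 without Rig1 KO 3 and 4, and 0.30 without Rig1 KO 1 and 2 (adjusted p = 0.0256). An antisense transcript that the files do not list, Gm48342, overlaps 46.6% of the Hmgcs1 exon bases, and the counting was not stated to use strand.

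A comparison of Insig1 with Hmgcs1 inside each library does not depend on the scaling between libraries. It was chosen after the values were seen. Per 100 Hmgcs1 reads there were 79.3, 94.5, 72.8 and 79.0 Insig1 reads in Rig1 KO libraries, against 279.7, 216, 254.5, 196 and 242 in WT libraries. The groups did not overlap, and the ratio averaged 81.4 ± 9.24 in Rig1 KO and 238 ± 32.7 in WT, 2.92-fold lower in Rig1 KO. Both genes were picked with their changes known, so the ratio is a description and no test of it is given.

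Idi1 encodes isopentenyl-diphosphate isomerase, which supplies the units from which Fdps builds farnesyl diphosphate. Idi1 had 7.90, 10.6, 14.0 and 13.2 TPM in Rig1 KO libraries, against 14.7, 8.29, 12.9, 12.6 and 12.1 TPM in WT libraries. The groups overlapped almost wholly, and each had 1 library near 8 TPM. The means of 11.4 ± 2.77 TPM in Rig1 KO and 12.1 ± 2.35 TPM in WT gave a log2 fold change of -0.09 (95% interval -0.48 to 0.30, limma adjusted p = 0.706), which was 0.062 without Rig1 KO 1. Each library had 84 to 154 Idi1 reads, and a fall of the size seen in Fdft1 lies within that interval.

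Fdps, the farnesyl diphosphate synthase gene, had 1.86, 1.93, 1.12 and 1.19 TPM in Rig1 KO libraries, against 1.03, 1.07, 1.19, 1.85 and 1.28 TPM in WT libraries. These values rest on 12 to 25 reads per library, and counting alone gives them a coefficient of variation of 24.1%. In the GRCm38 annotation 79.6% of the exon bases of Fdps lie within another gene on the same strand, Gm43738, which is listed with 1 to 10 reads. How reads that fit both genes were counted is not given, so these values may not measure the Fdps transcript. The log2 fold change was 0.14 (95% interval -0.18 to 0.46, limma adjusted p = 0.450).

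Fdft1 encodes squalene synthase, which commits farnesyl diphosphate to sterols. Fdft1 had 7.31, 5.49, 6.22 and 7.15 TPM in Rig1 KO libraries, against 8.66, 7.97, 9.93, 8.29 and 8.64 TPM in WT libraries. The groups did not overlap, with Rig1 KO 1 and WT 2 the nearest. Fdft1 averaged 6.54 ± 0.847 TPM in Rig1 KO (n = 4) and 8.70 ± 0.744 TPM in WT (n = 5), so the Rig1 KO mean was 75.2% of that in WT. The log2 fold change was -0.37 (SE 0.094, 95% interval -0.57 to -0.16, limma adjusted p = 0.00883), and the threshold was passed in 25 of 25 alternative settings, with log2 fold changes of -0.51 to -0.30. Ctsb, the cathepsin B gene on the opposite strand, overlaps 18.3% of the Fdft1 exon bases and has 4512 to 8935 reads per library beside the 275 to 514 of Fdft1. Ctsb stood at 238 ± 13.3 TPM in Rig1 KO and 197 ± 56.2 TPM in WT, a log2 fold change of 0.32 that did not pass (limma adjusted p = 0.189). Its share in the Fdft1 reads was not tested.

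Sqle encodes squalene epoxidase, the next enzyme and a slow step of the sterol branch. Sqle had 6.47, 7.64, 7.54 and 11.3 TPM in Rig1 KO libraries, against 9.78, 7.45, 9.94, 10.4 and 10.9 TPM in WT libraries. Rig1 KO 4 was the highest of all 9 libraries and the other Rig1 KO libraries were low, so the groups overlapped. Sqle averaged 8.23 ± 2.10 TPM in Rig1 KO (n = 4) and 9.69 ± 1.33 TPM in WT (n = 5), with a log2 fold change of -0.23 that did not pass (95% interval -0.55 to 0.10, limma adjusted p = 0.226). Without Rig1 KO 4 it was -0.37 and passed (adjusted p = 0.0326), as it did when scaled by median ratio (-0.35, adjusted p = 0.0495) or by quantiles (-0.38, adjusted p = 0.0320).

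Abca1 encodes a transporter that moves cholesterol out of the cell onto apolipoprotein A-I, and is a textbook LXR target. Abca1 had 6.76, 8.05, 7.24 and 9.58 TPM in Rig1 KO libraries, against 5.15, 5.56, 6.67, 5.45 and 6.07 TPM in WT libraries. The groups did not overlap, though Rig1 KO 1 and WT 3 were close. Abca1 averaged 7.91 ± 1.24 TPM in Rig1 KO (n = 4) and 5.78 ± 0.599 TPM in WT (n = 5), and the log2 fold change was 0.39 (SE 0.105, 95% interval 0.16 to 0.62, limma adjusted p = 0.0118, exact two-sided permutation p = 0.0159). The call held in 21 of 25 alternative settings. It did not pass under quantile scaling (0.25, adjusted p = 0.0579), without Rig1 KO 3 and 4 (0.31, adjusted p = 0.0645), or with a covariate for the B cell markers (0.30, adjusted p = 0.242). Abca1 is also high in macrophages, whose marker sum was higher in Rig1 KO libraries. Most of that gap lay in Ly6c2, which CD8+ T cells also express, at 1589 ± 194 TPM in Rig1 KO and 834 ± 111 TPM in WT, while Csf1r, Adgre1, Cd68, Lyz2, C1qa, C1qb and C1qc did not pass. With the mean of the whole list as a covariate the Abca1 log2 fold change was 0.30 and did not pass (adjusted p = 0.114). The groups did not overlap in the sums of this list, so that fit cannot separate the markers well from the knockout label.

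**Figure D2:**
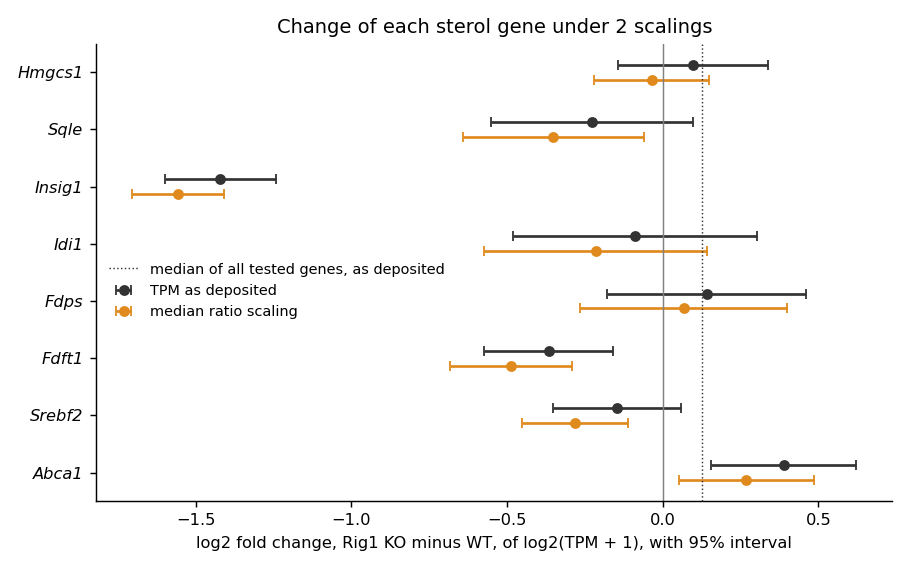
Log2 fold change (Rig1 KO minus WT) of the 8 genes on the log2(TPM + 1) scale with 95% intervals, from the deposited TPM and from TPM scaled by median ratio. The Insig1 interval, -1.60 to -1.24, lies apart from those of the other 7 genes, and Hmgcs1 is 0.10 as deposited and -0.036 after median ratio scaling.

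The deposited TPM used gene lengths that include introns, so levels of different genes were compared after dividing the recovered reads by exon length. On this exon-length TPM scale Srebf2 was the highest of the 8 genes in each group, at 119.7 ± 9.60 in Rig1 KO and 137 ± 15.2 in WT. Insig1 had 38.1 ± 3.06 in Rig1 KO, where it overlapped Abca1 at 35.4 ± 5.38 and Hmgcs1 at 31.9 ± 4.75. In WT Insig1 stood apart in second place at 106 ± 8.43, above Hmgcs1 at 30.3 ± 2.50, Abca1 at 26.5 ± 2.70 and Fdft1 at 26.1 ± 2.19, which overlapped one another. Fdft1 was lower than these in Rig1 KO, at 19.1 ± 2.39. Sqle and Idi1 overlapped in both groups, with Sqle at 8.58 ± 2.09 in Rig1 KO and 10.4 ± 1.32 in WT, and Idi1 at 8.11 ± 1.83 in Rig1 KO and 8.86 ± 1.68 in WT. The Abca1 groups, apart on the deposited scale, touched here. Whether reads in introns were counted is not given. If they were, this scale overstates genes with long introns, and the genomic span was 8.10 times the exon length in Srebf2 and 2.36 times in Insig1. On the deposited scale, which divides by the span, Insig1 was above Srebf2 in WT, at 122 and 45.8 TPM, and near it in Rig1 KO, at 45.03 and 41.2 TPM, so the order of these 2 genes depends on the length used.

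**Figure D3:**
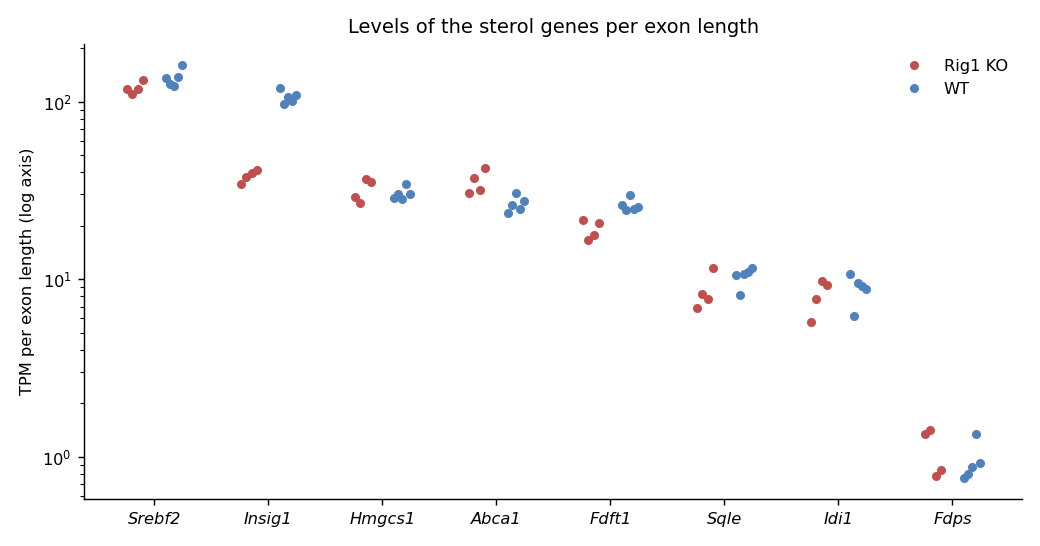
Exon-length TPM of the 8 genes on a log axis, ordered by their mean in WT, with each library as a point and Rig1 KO beside WT. On this scale Srebf2 is highest in both groups and Insig1 is level with Abca1 and Hmgcs1 in Rig1 KO, 38.1 beside 35.4 and 31.9, but well above them in WT, 106 beside 26.5 and 30.3.

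Among replicates, Insig1 and Srebf2 varied least between Rig1 KO libraries, with coefficients of variation of 9.76% and 9.67%, and Fdps, Sqle and Idi1 most, at 28.3%, 25.5% and 24.3%. In WT the same 3 had 25.9%, 13.7% and 19.4%, and Insig1 had 8.34%. Counting alone would give 9.15% for Idi1, 6.86% for Sqle and 3.25% for Insig1. Over the 9 libraries, the genes whose deviations from the group mean ran most like those of Hmgcs1 were Actr2 (r = 0.972), Cep20 (0.970), Chsy1 (0.968) and Rfk (0.967), none of them a sterol pathway gene on the lists used here. For Abca1 they were Pheta1 (r = 0.944), Lsm1 (0.936), Ergic3 (0.936), Tor1a (0.936) and Ubxn8 (0.925). These were the highest of 9386 genes searched over only 9 libraries that share their scaling, and are given as a description.

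The pathway around the 8 genes was described with 8 lists of 98 genes, of which 87 were tested. Of these, 33 were higher (37.9%), 10 were lower (11.5%) and 44 did not pass, with a median log2 fold change of 0.14, near the 0.13 of all tested genes. These shares are close to the 33.5% higher and 12.2% lower over all tested genes, so they show nothing particular to the pathway, and the counts of the single lists below are to be read against the same background. After median ratio scaling 26 were higher and 23 lower, with 22.6% of all genes in each direction. With the macrophage marker mean as a covariate 20 were higher and 6 lower, beside 2222 higher and 1030 lower over all 10540 genes. A covariate for B cell markers left 22 higher and 2 lower, beside 2246 higher and 604 lower over all genes. Calls over all genes were thus fewer too, from 3526 higher and 1291 lower without a covariate. The 8 genes are counted in these lists.

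Of the 9 mevalonate enzyme genes 2 were higher, 2 were lower and 5 did not pass, with a median log2 fold change of 0.10. Mvk, mevalonate kinase, averaged 6.67 ± 1.06 TPM in Rig1 KO and 8.41 ± 0.774 TPM in WT (-0.30, limma adjusted p = 0.0376). The Mvk call was lost without WT 2, WT 3, WT 4, WT 5, Rig1 KO 2 or Rig1 KO 3 (adjusted p of 0.0615, 0.0637, 0.0689, 0.0750, 0.0832 and 0.102). Acat2, the cytosolic thiolase that starts the pathway, was higher at 13.9 ± 1.25 TPM in Rig1 KO and 9.63 ± 1.30 TPM in WT (0.49, limma adjusted p = 0.00206). Ggps1, which makes geranylgeranyl diphosphate, was higher at 65.5 ± 6.38 TPM in Rig1 KO and 44.5 ± 3.29 TPM in WT (0.55, limma adjusted p = 0.000239).

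In the sterol branch 4 of 13 genes were higher, 3 were lower and 6 did not pass. The lower genes included Fdft1 and Cyp51 (-0.33), a sterol demethylase gene named after its values were seen. The higher genes encode late enzymes. Msmo1, a methyl sterol oxidase, had 10.9 ± 1.30 TPM in Rig1 KO and 7.02 ± 1.36 TPM in WT (0.58, limma adjusted p = 0.00412). Nsdhl, which removes the same methyl groups, had a log2 fold change of 0.47 (adjusted p = 0.00470), and the sterol desaturase gene Sc5d one of 0.42 (adjusted p = 0.00195). Dhcr7, which makes cholesterol from 7-dehydrocholesterol, was higher by 0.28 (adjusted p = 0.0231), a call lost without WT 2, WT 3, Rig1 KO 3 or Rig1 KO 4 (adjusted p of 0.0531, 0.0532, 0.0638 and 0.0666). It was also lost when scaled by median ratio (0.15, adjusted p = 0.0828) or by quantiles (0.13, adjusted p = 0.130).

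Among the 15 tested SREBP control genes 6 were higher, 3 were lower and 6 did not pass. Insig2, the paralogue of Insig1 with the same retaining role, moved the opposite way. It had 8.18, 8.18, 10.01 and 10.02 TPM in Rig1 KO libraries, against 5.72, 4.86, 4.54, 5.46 and 5.93 TPM in WT libraries. The groups did not overlap, and the log2 fold change was 0.68 (limma adjusted p = 0.000291). Erlin2 (0.57), whose product takes part in the sterol-regulated turnover of endoplasmic reticulum proteins, was higher as well. Syvn1, a ubiquitin ligase of endoplasmic reticulum quality control, was lower at 88.2 ± 13.3 TPM in Rig1 KO and 122 ± 12.8 TPM in WT (-0.47, limma adjusted p = 0.00569), and did not pass once B cell markers entered the model (-0.23, adjusted p = 0.335).

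**Figure D4:**
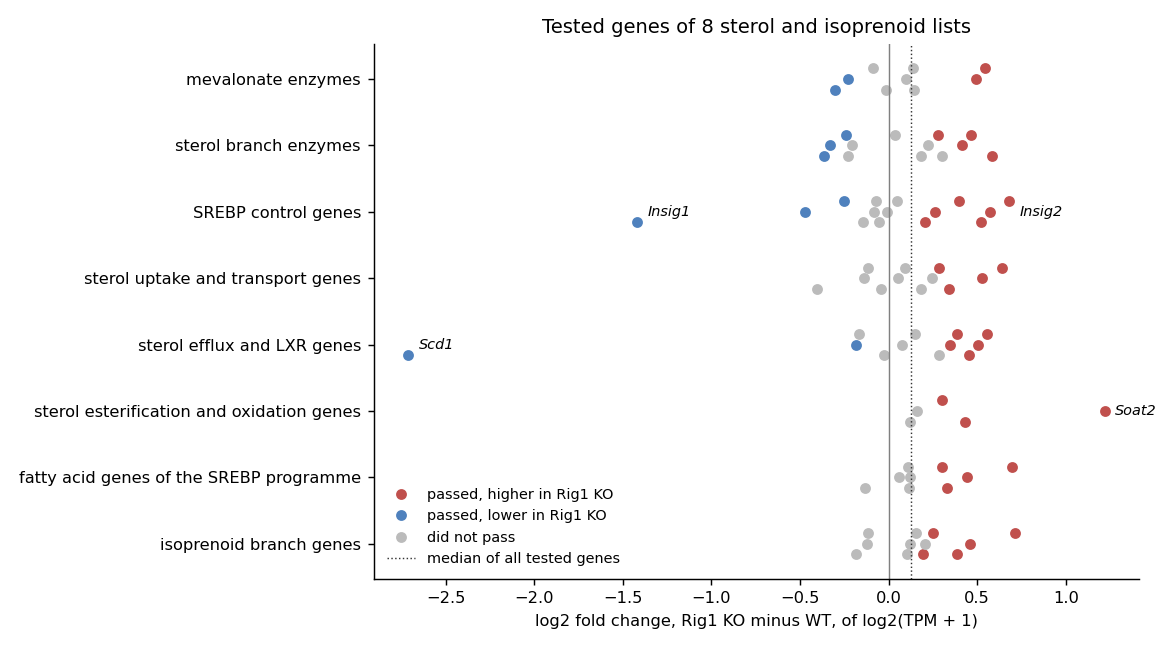
Log2 fold change (Rig1 KO minus WT, log2(TPM + 1) scale) of each tested gene of the 8 lists, 1 row of points per list, red where higher and blue where lower in Rig1 KO at an adjusted p under 0.05, grey where not passed; the solid line marks 0 and the dotted line the median of all tested genes, 0.13. Insig1 at -1.42 and Scd1 at -2.71 lie far to the left and Soat2 at 1.22 far to the right of their lists.

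For sterol uptake and transport 4 of 12 genes were higher, none was lower and 8 did not pass, and the median was 0.14. Mylip, an LXR target whose product degrades the LDL receptor, had 88.6 ± 8.005 TPM in Rig1 KO and 56.3 ± 3.03 TPM in WT (0.64, limma adjusted p = 4.15e-05). Npc1 (0.52), Lipa (0.34) and Osbp (0.29), which move or release cholesterol from lysosomes and between membranes, were also higher. Of the 12 tested genes of efflux and LXR response 5 were higher, 2 were lower and 5 did not pass. Besides Abca1, Arl4c (279 ± 6.26 TPM in Rig1 KO and 197 ± 10.5 TPM in WT, 0.50, limma adjusted p = 2.71e-05), Smpdl3a (0.45) and Lpcat3 (0.35), known LXR targets, were higher. The Lpcat3 call was lost when scaled by median ratio (0.22, adjusted p = 0.0579) or by quantiles (0.19, adjusted p = 0.0915). Not every LXR target was higher. Abcg1, a textbook target named here after its values were seen, had 33.7 ± 1.69 TPM in Rig1 KO and 34.4 ± 1.66 TPM in WT and did not pass (-0.03, adjusted p = 0.712), and passed as lower after median ratio scaling (-0.16, adjusted p = 0.00579). Nr1h2, the gene of LXR beta, also named after its values were seen, was lower at 302 ± 22.8 TPM in Rig1 KO and 343 ± 7.18 TPM in WT (-0.19, adjusted p = 0.0190).

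Scd1, the stearoyl-CoA desaturase gene and a target of both LXR and SREBP, was the largest fall on the lists. It had 4.93, 6.12, 15.6 and 3.83 TPM in Rig1 KO libraries, against 33.3, 51.7, 18.5, 61.1 and 140 TPM in WT libraries. The groups did not overlap, but the WT libraries spread widely, and their order was that of the B cell marker sums of 787, 1103, 417, 1282 and 2802 TPM in WT 1 to 5. Those sums were 208, 255, 399 and 211 TPM in Rig1 KO 1 to 4. There Scd1 was lowest in Rig1 KO 4 and the sum in Rig1 KO 1. The Scd1 log2 fold change was -2.71 (limma adjusted p = 0.00175), and -0.43 once B cell markers entered the model (adjusted p = 0.108). Whether the B cell difference has a part in the Scd1 values was not tested beyond that fit.

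Of the 5 tested genes of sterol esterification and oxidation 3 were higher, none was lower and 2 did not pass. Soat2, which esterifies cholesterol for storage, had 19.0, 17.8, 20.99 and 19.3 TPM in Rig1 KO libraries, against 5.53, 8.48, 9.81, 8.94 and 6.46 TPM in WT libraries. Every Rig1 KO library was above every WT library, and the fold change was 2.46 (log2 fold change 1.22, limma adjusted p = 6.67e-05). Soat1, the more widely expressed of the pair, was higher by 0.43 (adjusted p = 0.00614). Nceh1, which hydrolyses the esters, was higher by 0.30 (adjusted p = 0.0191), a call lost without Rig1 KO 3 or Rig1 KO 4 (adjusted p of 0.0518 and 0.0565). It was also lost when scaled by median ratio (0.19, adjusted p = 0.0646) or by quantiles (0.21, adjusted p = 0.0514). Sult2b1, a sterol sulfotransferase gene, had 1.68 ± 0.196 TPM in Rig1 KO and 1.40 ± 0.198 TPM in WT and did not pass (0.16, adjusted p = 0.217).

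Among 9 tested fatty acid genes of the SREBP programme 4 were higher, none was lower and 5 did not pass. Acss2, which makes acetyl-CoA from acetate, had 10.4 ± 1.14 TPM in Rig1 KO and 6.01 ± 0.515 TPM in WT (0.70, limma adjusted p = 0.000123). The elongase gene Elovl6 (0.44), the acetyl-CoA carboxylase gene Acaca (0.30) and the desaturase gene Fads1 (0.33) were higher too. In the isoprenoid branch 5 of 12 genes were higher, none was lower and 7 did not pass. Coq2 of ubiquinone synthesis had 50.1 ± 4.28 TPM in Rig1 KO and 30.1 ± 3.11 TPM in WT (0.72, limma adjusted p = 9.62e-05). Fnta (0.38) and Rabggta (0.25), subunits of prenyl transferases, and the methyltransferase gene Icmt (0.46) were higher. After median ratio scaling 3 isoprenoid genes were higher and 3 lower, and Rabggta no longer passed (0.11, adjusted p = 0.160).

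Several of the calls named from the lists did not hold once cell-type markers entered the model. With the B cell covariate Acat2, Mvk, Nsdhl, Syvn1, Lipa, Smpdl3a, Scd1, Nceh1, Acaca, Elovl6 and Rabggta no longer passed. The estimates of Acat2 (0.50), Mvk (-0.30), Nsdhl (0.46), Lipa (0.32), Nceh1 (0.30), Acaca (0.31) and Rabggta (0.24) stayed near those given above. Those of Syvn1 (-0.23), Smpdl3a (0.38), Scd1 (-0.43) and Elovl6 (0.30) were smaller in size. The groups did not overlap in their B cell marker sums, so this fit cannot separate the markers well from the knockout label. With the macrophage and monocyte covariate Msmo1, Dhcr7, Syvn1, Lipa, Lpcat3, Soat1, Nceh1 and Fads1 no longer passed. The groups did not overlap in the macrophage and monocyte marker sums either, so the same limit holds for that fit. Without Rig1 KO 3 and 4 the calls of Mvk, Msmo1, Dhcr7, Lipa, Soat1, Nceh1, Elovl6, Acaca and Fads1 were lost. Insig2, Erlin2, Mylip, Npc1, Osbp, Arl4c, Soat2, Acss2, Coq2, Fnta, Icmt, Ggps1 and Sc5d passed in all 3 of these settings.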

How the data were processed

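Values were deposited by the authors as TPM, 1 column per library. Reads were trimmed with fastp and counted with featureCounts on GRCm39, per the submitters' processing notes. TRIzol extraction was followed by NEBNext poly(A) selection and library preparation, per the labels' protocols. No source used here names the aligner, annotation or gene lengths.

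The TPM decimals allowed whole reads to be recovered for every gene (relative tolerance 2e-12). Implied lengths lay within 1% of the genomic span, introns included, for 96.6% of 17511 genes, so TPM levels are not comparable between genes. The GRCm38 annotation was used only for names, lengths, overlaps and RefSeq promoters.

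Genes reaching TPM 1 in 4 or more libraries entered limma 3.58.1 (trend, two-sided, R 4.3.3) on log2(TPM + 1), with Benjamini-Hochberg adjustment over all 10540 genes. Exact tests (scipy 1.17.1) used all 126 divisions of 9 libraries. Depth gives counting error only.

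The 8 genes and the lists were chosen with earlier results of these data known. Beside the 8 genes, the rule named up to 4 genes of each list with the smallest p. Alternatives covered pseudocount, filter, scaling, lengths, voom, covariates and left-out libraries. Some genes that the rule or a count covers are not reported here.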

Additional observations from a re-analysis of the deposited data

Results flagged for a closer look

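In each group, a library was marked where its gap to the nearest other library took up most of the range of the group (Dixon's criterion at 95%). Of 76 groups of values, from 38 genes, 2 were marked, and chance marks about 1 in 20. Neither belongs to the 8 genes described first. Nsdhl was at 10.7 TPM in Rig1 KO 3, with the nearest Rig1 KO library at 8.06 TPM. Ggps1 was at 50.3 TPM in WT 4, with the nearest WT library at 43.7 TPM.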

How the results depend on the processing

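Of 198 values of the 8 genes under other settings, 180 kept direction and side of the threshold, 7 newly passed, 4 no longer passed (Abca1) and 7 reversed. Of 771 values of the other named genes, 717 kept both and 54 no longer passed. Reversed log2 fold changes were those of Hmgcs1 (-0.036 under median ratio scaling, -0.039 under quantile scaling, -0.11 without Rig1 KO 3 and 4), Idi1 (0.062 without Rig1 KO 1, where leaving out single libraries gave -0.21 to 0.062, 0.17 without Rig1 KO 1 and 2), Fdps (-0.073 without Rig1 KO 1 and 2) and Srebf2 (0.087 with the B cell covariate). The difference of mean Hmgcs1 TPM was -0.490 under median ratio scaling. Of 10540 genes, 4817 changed, and 2850 with the B cell covariate. The share of changed genes that were higher was 73.2%, against 49.97% under median ratio scaling, 53.9% under quantile scaling and 61.8% with voom. Of the 8 genes, 0 were higher by limma under quantile scaling, with either covariate or without Rig1 KO 3 and 4, where Abca1 had the adjusted p-values given above, and 2 without Rig1 KO 1 and 2. Under median ratio and quantile scaling 4 were lower. Pathway genes higher numbered 20 with the macrophage covariate and 19 without Rig1 KO 3 and 4. In these fits 2222 and 2165 of all 10540 genes were higher, against 3526 in the main fit. Pathway genes lower numbered 23 under median ratio scaling, 21 under quantile scaling, 17 with voom, 2 with the B cell covariate, 6 with the macrophage covariate, 4 without WT 4 and 5 and 4 without Rig1 KO 1 and 2, and 6 to 11 when single libraries were left out, with 6 without WT 3 and 6 without Rig1 KO 2. Lower calls over all 10540 genes moved as well, from 1291 in the main fit. They numbered 2384 under median ratio scaling, 2193 under quantile scaling and 1945 with voom. With the B cell covariate they numbered 604 and with the macrophage covariate 1030. They numbered 1103 without WT 4 and 5, and 989 without Rig1 KO 1 and 2. The cause of these shifts was not tested. The macrophage covariate, the left-out Rig1 KO pairs and the Insig1 to Hmgcs1 ratio were chosen after seeing the data. With the replicate block 4777 genes changed, 1 of the 8 genes was higher and 2 lower, and Mvk no longer passed (-0.26, adjusted p = 0.0942). Same-numbered libraries did not deviate together (r of 0.0972, -0.0601, -0.0996 and -0.0724), and only number 1 correlated best with its own number. The labels do not say whether the numbers pair libraries, and these correlations cannot settle it. Fdps fell below the filter with exon lengths and with a mean TPM of at least 5, so it has no value there. Depth limits Fdps (12 to 25 reads) and Idi1 (84 to 154 reads).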
